A study of Mus musculus with 7 samples.

Results

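Of 323369 reference regions of accessible chromatin, 6144 (1.90%) were strongly open in all 3 interneuron subtypes. They were chosen by their reads: each region's count was scaled to CPM, the number of reads per 1000000 reads of the sample counted over all regions, and a region was kept when it reached 20 CPM in all 6 samples. That threshold was worth between 37 and 46 reads in a sample. The levels of these regions were therefore selected on and are given as a description, with no test. Of the 6144 regions, 6135 lay on nuclear chromosomes and 9 on the mitochondrial genome.

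The study profiled open chromatin by ATAC-Seq, in which a transposase cuts exposed DNA, in nuclei of somatostatin (SST), parvalbumin (PV) and vasoactive intestinal peptide (VIP) interneurons of the adult mouse cortex. The mice carried Sst-IRES-Cre, Pv-Cre or Vip-IRES-Cre together with the Cre-dependent nuclear tag SUN1-2xsfGFP-6xMYC, were 6 to 12 weeks old, were labelled male, although the protocol in the labels speaks of both sexes, and received no injection. Each subtype had 2 samples, and each purification used nuclei of a single animal. Since the Cre driver alone decided which nuclei were tagged, a group is the set of cells that expressed the driver. A further sample, nuclei of the primary visual cortex (V1) of 2 C57BL/6J mice aged 6 to 10 weeks that had been injected there with a pooled library of AAV reporters, was profiled by single-nucleus RNA-Seq in 10 libraries.

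A promoter is the stretch around the start of a gene, and promoters of genes that most cells use often lie in CpG islands, stretches rich in G, C and the pair CG that are usually unmethylated and free of nucleosomes at the start. Such promoters tend to be open in many tissues, whereas enhancers, which lie away from starts, differ more between cell types. Factors such as SP1, NRF1, ETS proteins and YY1 bind short motifs in CpG-island promoters, and CTCF binds insulator sites that are shared by many cell types.

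Stretches of 8 of the regions are shown because the results below turn on them. The first 6 are the bases leading up to the start of the named gene, read along the gene. On the plus strand the stretch ends on the first transcribed base, and on the minus strand it leaves out the 1 base just before that. The last 2 are the middle of a region away from starts, read on the plus strand. All come from RefSeq's GRCm38 (mm10). Capitals mark matches on either strand to the GC box (GGGCGG), the NRF1 motif, the ETS motif (CCGGAAG), the YY1 motif (AANATGGCG, N being any base), the cyclic AMP response element (TGACGTCA) and the CTCF motif. Bcl10 and Tle1 had the highest nuclear levels, Prelid3b was among the most even, Rap1b and Mrpl36 differed between VIP and PV, Arc was lower in PV, Slc38a2 marks the highest region with a CTCF motif away from starts, and Tet1 the most conserved region away from starts.
Bcl10, chr3:145924063-145924262, plus strand: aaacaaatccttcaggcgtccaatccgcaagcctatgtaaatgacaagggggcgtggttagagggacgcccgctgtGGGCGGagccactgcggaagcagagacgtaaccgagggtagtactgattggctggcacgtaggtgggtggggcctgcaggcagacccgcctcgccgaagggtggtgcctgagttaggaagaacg
Tle1, chr4:72200921-72201120, minus strand: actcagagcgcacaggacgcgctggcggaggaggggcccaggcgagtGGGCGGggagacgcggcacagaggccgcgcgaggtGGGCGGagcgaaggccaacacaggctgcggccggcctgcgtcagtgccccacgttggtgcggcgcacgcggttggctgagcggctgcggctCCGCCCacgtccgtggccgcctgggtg
Prelid3b, chr2:174473083-174473282, minus strand: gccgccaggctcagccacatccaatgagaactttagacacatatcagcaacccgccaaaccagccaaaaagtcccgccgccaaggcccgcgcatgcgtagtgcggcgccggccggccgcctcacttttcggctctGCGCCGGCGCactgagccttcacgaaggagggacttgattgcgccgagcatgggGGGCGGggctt
Rap1b, chr10:117846037-117846236, minus strand: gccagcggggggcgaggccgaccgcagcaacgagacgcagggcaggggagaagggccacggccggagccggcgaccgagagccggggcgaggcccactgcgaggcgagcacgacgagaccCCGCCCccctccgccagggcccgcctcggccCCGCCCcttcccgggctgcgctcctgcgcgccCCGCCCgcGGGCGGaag
Mrpl36, chr13:73330827-73331026, plus strand: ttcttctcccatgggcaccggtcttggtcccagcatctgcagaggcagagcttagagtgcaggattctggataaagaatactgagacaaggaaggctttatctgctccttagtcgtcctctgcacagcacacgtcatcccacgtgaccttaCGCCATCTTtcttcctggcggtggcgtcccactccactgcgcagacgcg
Arc, chr15:74672572-74672771, minus strand: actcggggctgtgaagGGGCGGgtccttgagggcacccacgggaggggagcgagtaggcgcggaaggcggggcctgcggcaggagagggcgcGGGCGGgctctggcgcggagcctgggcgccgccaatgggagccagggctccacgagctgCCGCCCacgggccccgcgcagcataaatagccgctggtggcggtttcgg
Slc38a2, chr15:96709711-96710010, plus strand: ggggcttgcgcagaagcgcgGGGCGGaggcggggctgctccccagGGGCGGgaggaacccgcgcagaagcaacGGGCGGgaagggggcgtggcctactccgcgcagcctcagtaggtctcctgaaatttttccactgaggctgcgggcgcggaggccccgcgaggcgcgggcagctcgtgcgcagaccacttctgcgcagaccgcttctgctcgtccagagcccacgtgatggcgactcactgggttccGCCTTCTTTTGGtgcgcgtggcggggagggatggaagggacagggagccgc
Tet1, chr10:62865375-62865674, plus strand: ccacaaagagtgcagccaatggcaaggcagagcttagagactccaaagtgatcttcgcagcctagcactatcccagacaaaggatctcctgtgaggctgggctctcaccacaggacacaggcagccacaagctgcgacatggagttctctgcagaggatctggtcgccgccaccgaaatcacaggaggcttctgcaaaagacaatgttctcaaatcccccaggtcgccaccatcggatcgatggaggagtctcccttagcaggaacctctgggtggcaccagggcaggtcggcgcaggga
The Rap1b stretch held 30 CG pairs and 4 GC boxes in 200 bases, and the Tle1 stretch 27 CG pairs and 3 GC boxes. The Mrpl36 stretch held 10 CG pairs, no GC box and 1 YY1 match. Prelid3b had 1 GC box and 1 NRF1 match, Arc had 3 GC boxes and Bcl10 had 1. The stretch near Slc38a2 held 32 CG pairs, 3 GC boxes and 1 CTCF match in 300 bases, while that in Tet1 held 10 CG pairs and none of these motifs. A match is a stretch of letters and not a measured binding site.

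The 6 samples held between 1801883 and 2256073 counted reads. The driver genes' own loci followed the labels: reads within 5 kilobases of the gene summed to 23.1 and 26.6 CPM for Sst in the SST samples against at most 6.10 CPM elsewhere, to 33.1 and 42.7 CPM for Pvalb in the PV samples against at most 17.7 CPM elsewhere, and to 21.3 and 24.6 CPM for Vip in the VIP samples against at most 5.25 CPM elsewhere. Summed over each list of subtype markers, the SST list held 251 and 228 CPM in SST against at most 200 elsewhere, the PV list 231 and 277 CPM in PV against at most 134, and the VIP list 275 and 287 CPM in VIP against at most 195. Single genes of these lists went other ways, as at Cort, an SST marker, with 9.45 and 6.65 CPM in SST and 16.3 and 22.8 CPM in PV. Markers of other cells were not empty, and single genes of a list moved with the subtype in both directions. Summed over the list, excitatory neuron markers held 345 and 337 CPM in VIP and 298 to 317 in SST and PV. Camk2a was higher in VIP (188 and 205 against 124 to 145 CPM), while Slc17a7 (14.4 and 12.1 against 17.7 to 26.4 CPM) and Neurod6 were lower. Astrocyte markers held 236 and 219 CPM in VIP and 155 to 192 elsewhere, and of that list only Aldh1l1 lay above all other samples (153 and 150 against 71.7 to 104 CPM). Oligodendrocyte markers held 144 and 140 CPM in VIP and 211 to 221 elsewhere, most of it at Mbp (118 and 123 against 165 to 183 CPM), and Mag was at 0 in VIP replicate 1. Endothelial markers held 98.8 and 118 CPM in VIP and 77.6 to 85.9 elsewhere, with Tek and Pecam1 higher in VIP and Cldn5, Flt1 and Kdr lower. Microglia markers held 191 to 243 CPM, with P2ry12 (5.46 and 8.05 against 27.5 to 39.9 CPM) and Csf1r (23.8 and 17.0 against 38.8 to 47.2 CPM) lower in VIP and Cx3cr1 higher (171 and 174 against 111 to 146 CPM). The part of such nuclei in the differences from VIP given below was not tested. In bulk nuclei, fewer nuclei of a type and a lower level per nucleus cannot be told apart. The SST samples stood apart from each other: their replicates differed by more than 2-fold (1 on the log2 scale) at 424 of the 6144 regions, against 5 regions for PV and 13 for VIP.

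The 6144 regions took a large share of all reads. They held 42.5% and 41.4% of the reads in the SST samples, 39.6% and 37.2% in PV, and 42.6% and 45.5% in VIP. The exact 95% binomial interval of each share was at most 0.141 percentage points wide and covers counting error only, since reads without molecular identifiers are not independent molecules. The PV shares were the lowest and did not overlap those of the other subtypes. Nuclear regions at gene starts carried 33.5% to 41.5% of all reads, other nuclear regions 3.27% to 3.81%, and the mitochondrial regions 0.158% to 0.487%.

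**Figure D1:**
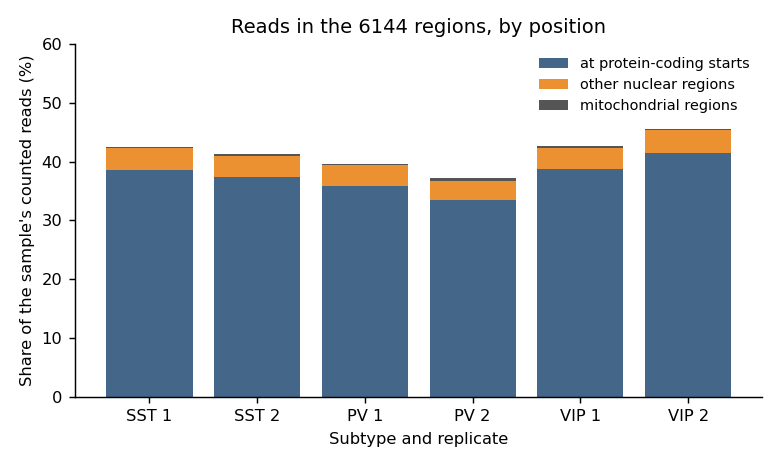
Share of each sample's counted reads (%, y axis) that fell in the 6144 regions, for the 2 replicates of each subtype (x axis), stacked by position. Regions at protein-coding starts make up most of the bar in every sample, and the bars run from 37.2% in PV replicate 2 to 45.5% in VIP replicate 2.

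The regions varied widely in level among themselves. Their mean over the 6 samples had a median of 55.5 CPM and ran from 21.8 to 1423 CPM, where all reference regions had a median of 0.903 CPM. Per kilobase of region the medians were 68.3 and 1.30 CPM, with median widths of 799 and 673 bases. The lowest sample of a region lay between 20 and 40 CPM for 3277 nuclear regions and over 160 CPM for 76. The threshold cut through a continuous range. Egr2, an activity-induced transcription factor, entered with 22.8 and 20.1 CPM in VIP, and Lin7a and Snx6 also entered with 20.1 CPM in their lowest sample. Just outside, regions at the starts of March4 and Lpgat1 and a region near Wnt10a reached 19.98 CPM in PV replicate 2 and over 20 CPM in the other 5 samples. In all, 936 regions fell short in a single sample, and 3193 regions had a mean of at least 20 CPM without being strongly open in all.

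The highest region was mitochondrial. At chrM:15306-16068, which runs from the last tRNA genes of the mitochondrial genome into its control region, SST had 1301 and 1286 CPM, PV 2159 and 1655 CPM, and VIP 1125 and 1009 CPM. A region 431 bases from the start of mt-Nd1 (chrM:1666-2320) had 151 and 411 CPM in SST, 81.4 and 975 CPM in PV, and 283 and 73.3 CPM in VIP. The replicates of each subtype thus lay far apart. Mitochondrial DNA carries no nucleosomes. All 9 mitochondrial regions passed the threshold, while none of the 707 regions of chromosome Y did. Chromosome X held 116 of the 6144 regions (1.89%), against 3.07% of all regions.

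Among nuclear regions the promoter of Bcl10, an adaptor of NF-kappa B signalling, was highest. It had 385 and 386 CPM in SST, 316 and 267 CPM in PV, and 337 and 388 CPM in VIP. The promoter of Tle1, a transcriptional corepressor, had 388 and 299 CPM in SST, 409 and 369 CPM in PV, and 277 and 287 CPM in VIP. The next were Papss1, which makes the sulfate donor of the cell, Rad23b, a DNA repair and proteasome shuttle factor, and Suco. These nuclear regions were picked after their values were seen, because 3 of the 5 highest regions were mitochondrial.

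Nearly all of the regions lay at gene starts. A region was called a promoter when it overlapped the 500 bases on either side of the start of a protein-coding transcript in GENCODE vM21. That held for 5494 of the 6144 (89.4%), against 6.54% of all reference regions. Of the rest, 125 overlapped an exon, 164 lay in introns and 361 lay outside genes, all by protein-coding genes alone. With the starts of all annotated genes, 5652 were promoters and 232 lay outside genes. Some regions called away from starts or outside genes here thus lie at starts of genes that are not protein-coding. Read the other way, 26.0% of all promoter regions, 0.372% of exonic, 0.143% of intronic and 0.235% of intergenic regions were strongly open in all 3 subtypes. By that window, which need not hold the start itself, a region lay at a start of 5928 of 21924 protein-coding genes (27.0%). Of the promoter regions, 670 lay within 500 bases of starts of 2 or more genes, as at divergent gene pairs. A total of 328 regions (5.34%) overlapped another of the 6144 and so share sequence and reads with it.

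The authors' peak calls covered most of the regions. Between 95.4% and 95.9% of them overlapped a peak in any one sample's list, and 5463 (88.9%) did so in all 6 lists. The converse did not hold: 28.8% of the regions with a peak in all 6 lists reached 20 CPM throughout. For 98 of the 6144 no list held a peak. None of the 287 candidate enhancers that the study screened was among the 6144, and the highest of their lowest-sample levels was 1.34 CPM. The paper picked these 287 for conserved sequence and for a higher ATAC-Seq signal in SST than in PV and VIP. A rule of 20 CPM in all 6 samples works against such regions, so nothing is read from their absence.

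The sequence of the regions was that of CpG islands. In the middle 300 bases the median GC content was 68.0%, against 51.0% over all nuclear regions. The median ratio of observed to expected CG pairs was 0.896 against 0.231, and it was above 0.6, a customary bound for CpG islands, in 93.1% against 7.80%. The contrast was also present within promoters, where the ratio was above 0.6 in 95.6% of the strongly open regions and in 64.1% of all. Among the 647 strongly open nuclear regions away from protein-coding starts it was above 0.6 in 72.0%, against 3.86% of all such regions. Some of the 647 lie at starts of other annotated genes.

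Motifs of ubiquitous promoter factors were common in the regions. The GC box, which SP1-family factors bind, stood in the middle 300 bases of 76.0% of them (10.9% of all regions), and the NRF1 motif (GCGC and GCGC with any 2 bases between) in 20.7% (1.15%). NRF1 drives genes of mitochondrial function. The ETS motif stood in 19.7% (2.78%), the YY1 motif in 6.59% (1.25%) and the cyclic AMP response element, which CREB binds, in 4.53% (0.479%). Within promoters the contrast was smaller, with the NRF1 motif in 21.4% against 10.1%, the ETS motif in 21.0% against 11.9% and the GC box in 78.3% against 54.7%. All motifs were searched on both strands, and those rich in G, C and CG recur by letter composition alone more often in GC-rich sequence.

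Motifs of neuronal enhancer factors were scarcer over the regions as a whole. The AP-1 motif (TGANTCA), which FOS and JUN proteins bind, stood in 2.90% of the regions and in 13.0% of all. The homeodomain core (TAATTA) stood in 0.489% against 4.91%, the MEF2 motif in 1.68% against 4.05% and the E-box (CAGCTG) in 17.2% against 26.3%. Within promoters the contrast was smaller here too, with AP-1 in 2.57% against 5.13%, the homeodomain core in 0.437% against 1.32%, MEF2 in 1.68% against 2.17% and the E-box in 16.0% against 20.2%. Away from starts the E-box was not scarcer, at 28.0% against 26.7%, while AP-1 stood in 5.72% against 13.6%, the homeodomain core in 0.927% against 5.16% and MEF2 in 1.70% against 4.18%. Motifs rich in A and T recur less often in GC-rich sequence by letter composition alone. Away from starts, the CTCF motif (CCA, any 2 bases, AG, any 2 bases, GGC) stood in 48 of the 647 strongly open regions (7.42%), against 3.43% of all such regions. The promoter shares for CTCF were 3.33% and 3.26%.

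**Figure D2:**
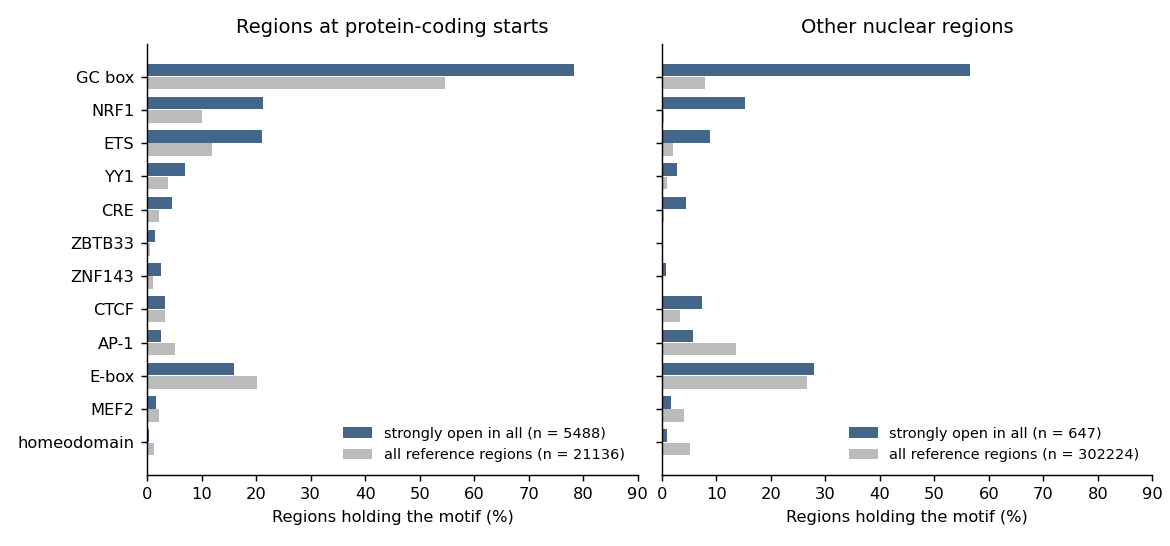
Share of regions (%, x axis) whose middle 300 bases hold each motif (y axis), for the regions strongly open in all subtypes and for all reference regions, at protein-coding starts (left) and elsewhere in the nuclear genome (right). The GC box stands in 78.3% of strongly open promoters and the AP-1 motif in 2.57%, while away from starts the GC box stands in 56.6% against 7.86%.

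Conservation differed by position. The mean phyloP score of a region, which is above 0 where placental mammals changed less than neutral sequence would, had a median of 0.209 in the 6144 regions and 0.0642 in all. It passed 0.5 in 22.0% against 11.2%. Within promoters, though, the medians were 0.215 and 0.195, and 21.8% of strongly open promoters passed 0.5 against 23.3% of all promoters. Exonic regions had medians of 0.491 against 0.313 and intronic regions 0.223 against 0.0581, and regions outside genes 0.0580 against 0.0433. The shares past 0.5 were 49.2% against 30.6% in exons, 27.4% against 7.62% in introns and 14.2% against 7.97% outside genes.

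Some regions away from starts stood high or were well conserved, but few were among the highest. Promoters made up 97.4% of the 76 nuclear regions with over 160 CPM in their lowest sample. At 20 to 40 CPM they made up 85.9%. The highest nuclear region away from starts lay outside genes at chr15:68362961-68363725, 104105 bases from the nearest protein-coding start (Zfat). It had 278 and 277 CPM in SST, 234 and 189 CPM in PV, and 239 and 263 CPM in VIP. The most conserved, at chr10:62865079-62865971 in an intron 14043 bases from the start of the DNA demethylase gene Tet1, had a phyloP mean of 2.03 and between 28.5 and 38.3 CPM in all samples. The next in conservation lay near Foxp1 (1.81) and Ssbp2 (1.66), a transcription factor and a transcriptional cofactor. Of the regions with a CTCF motif away from starts, the highest lay 9761 bases from Slc38a2, an amino acid transporter gene, with 95.5 to 147 CPM across the samples.

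Genes that most cells use often had a strongly open region at a start. Over all protein-coding genes 27.0% had one. The share was 39 of 79 for cytosolic ribosomal proteins, 38 of 78 for mitochondrial ribosomal proteins, 23 of 48 for the proteasome, 37 of 62 for complex I and ATP synthase, and 8 of 10 for cohesin and insulator genes, including Ctcf, Rad21 and Smc3. Pan-neuronal genes had 5 of 12 (Syt1, Syn1, Tubb3, Nefl and Nefm) and immediate early genes 6 of 15 (Jun, Junb, Jund, Egr1, Arc and Btg2).

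Genes that set interneurons apart were rarely among them. Of 11 GABA genes only Gad2, which makes GABA, had one, with 34.1 and 23.9 CPM in SST, 25.9 and 37.2 CPM in PV, and 21.8 and 23.2 CPM in VIP. None of the 7 genes of the caudal ganglionic eminence, the birthplace of VIP cells, of 6 SST markers or of 5 PV markers had one, and of 6 VIP markers only the cannabinoid receptor gene Cnr1 did. Marker lists of excitatory neurons, astrocytes, oligodendrocytes, microglia and endothelium had none. The rule asks for a high level in every sample of every subtype, so it works against genes that set a subtype apart from the others. The lists are also short. Nothing is therefore read from the counts for the SST, PV, VIP and caudal ganglionic eminence lists.

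RNA in nuclei of V1 was measured apart from the ATAC-Seq and in all cell types of that area together. Over 32335 nuclei with more than 200 unique molecular identifiers (UMIs), 5719 genes with a strongly open region at a start had a median of 43.4 UMIs per 1000000 UMIs (UPM), with quartiles of 18.4 and 96.9. The 9974 genes with another reference region there had a median of 9.66, and the 4630 genes with none had 0.316. At least 10 UPM were seen for 85.3%, 49.4% and 5.29% of these genes. The genes with a strongly open region gave 50.5% of all UMIs. Among them the median was 37.7 UPM where the lowest sample had 20 to 40 CPM and 65.5 where it had over 160 CPM. This is 1 sample, so no test was made.

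**Figure D3:**
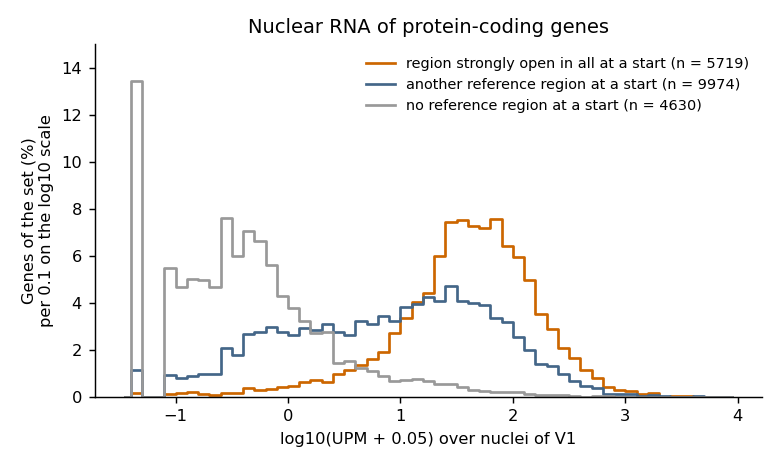
Distribution of nuclear RNA level, as log10 of UPM (UMIs per 1000000 UMIs) plus 0.05 (x axis), over protein-coding genes grouped by the region at their start, as % of the genes of a set per step of 0.1 (y axis). Genes with a strongly open region peak near 1.8 on this scale and few lie below 0, whereas 13.4% of genes with no reference region had no UMI at all.

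Although every region reached 20 CPM in all 6 samples, levels still differed. Between the highest and lowest subtype mean the median difference was 0.58 on the log2 scale, or 1.49-fold, against 0.25 between replicates. It exceeded 2-fold at 1029 regions (16.7%) and 4-fold at 10. The highest mean was in VIP for 53.1% of the regions, in PV for 24.6% and in SST for 22.2% by CPM, and for 42.4%, 37.6% and 19.9% with TMM (trimmed mean of M-values) scaling factors taken over the 6144 regions. At the other extreme, the Prelid3b promoter had 114 and 114 CPM in SST, 120 and 110 CPM in PV, and 111 and 117 CPM in VIP. Slc46a3 and Fryl were as even, with between 34.4 and 35.9 CPM and between 20.9 and 22.9 CPM.

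Differences were tested with edgeR's quasi-likelihood test on the counts of all 40338 regions that passed its filter on low counts, which all 6144 did, with Benjamini-Hochberg adjustment over those 40338 and a threshold of 0.05. The 3 comparisons share samples and are not independent. Any difference between the 3 subtypes was called at 2388 of the 6144 regions (38.9%), where the share over all tested regions was 51.8%. Nothing is read from that gap, since the rule left out regions that were low in any sample. Without the filter on low counts the order turned, with 785 of the 6144 and 10645 of 310118 tested regions called, and DESeq2 called 1434 of the 6144 and 12334 of the 40338. By class the share was 38.8% of promoter regions and 39.6% of the other nuclear regions. It was 19.7% of the 76 regions with over 160 CPM in their lowest sample. Leaving out SST replicate 1 gave 4057 regions and leaving out SST replicate 2 gave 4065, whereas leaving out PV replicate 1 or 2, or VIP replicate 1 or 2, gave 1532, 1558, 1515 and 1314.

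The SST replicates differed at regions called between PV and VIP, a difference whose size does not use the SST levels, although the SST samples enter the estimate of the spread and the filter. At the 848 regions called higher in PV than in VIP, SST replicate 1 was above replicate 2 at 761 (89.7%), by a median of 0.66 on the log2 scale. At the 1791 called higher in VIP than in PV it was above at 351 (19.6%), with a median of -0.28, and at the regions not called at 54.3%. Each SST sample is thus to be read on its own in what follows, and what set them apart was not tested.

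The choices of scaling and filter moved the balance of the calls. The main fit scaled libraries by TMM over all tested regions, and there the median over the 6144 regions was 0.13 for SST minus PV, -0.08 for SST minus VIP and -0.23 for PV minus VIP on the log2 scale. With TMM factors taken over the 6144 regions alone these medians came to 0.01, 0.01 and -0.01. Medians near 0 are built into that choice, since TMM centres the differences of the regions it is given. The medians of all tested regions then moved from -0.02 to -0.14, from 0.05 to 0.15 and from 0.04 to 0.26. Without the filter on low counts the medians over the 6144 moved the other way, to 0.25, -0.27 and -0.53. Both splits by scaling are therefore given for each pair.

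**Figure D4:**
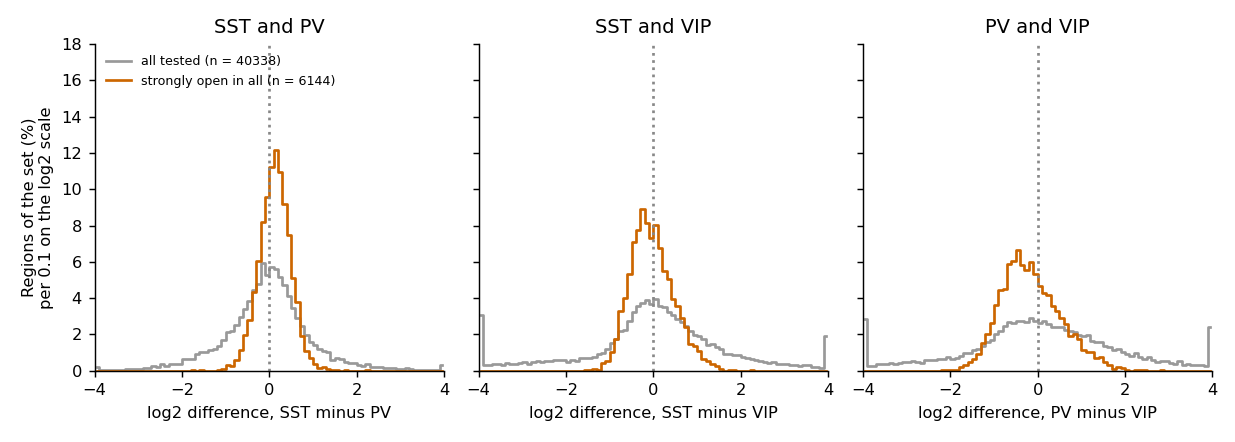
Distribution of the log2 difference between subtypes (x axis, edgeR with TMM over all tested regions; values beyond 4 are drawn in the end bins) for the 6144 strongly open regions and all 40338 tested regions, as % of the set per step of 0.1 (y axis). The strongly open regions are narrower in every pair, as the rule itself favours by leaving out regions low in any sample, and their median lies at -0.23 for PV minus VIP.

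SST and PV had the fewest calls with all 6 samples, an order that turned without SST replicate 1 (2076 regions, against 1274 for SST and VIP). Higher in SST were 175 regions (2.85%; 3.85% of all tested) and higher in PV 34 (0.553%; 4.49%). With scaling over the 6144 regions the numbers were 83 and 80. Arc, a synaptic activity-induced gene, was among the clearest: its promoter had 86.6 and 85.1 CPM in SST, 30.5 and 36.6 CPM in PV, and 78.4 and 93.0 CPM in VIP. PV was below every other sample, and the log2 difference was 1.34 (SE 0.22, edgeR adjusted p = 0.00322) for SST minus PV and -1.33 (SE 0.22, adjusted p = 0.000199) for PV minus VIP. Over all nuclei of V1 Arc had 452 UPM. In those that held Sst, Pvalb or Vip UMIs alone it had 156, 126 and 150 UPM, with exact 95% Poisson intervals of 132 to 183, 95.2 to 164 and 112 to 197, which cover counting error only.

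The promoter of Fbxo30, a ubiquitin ligase subunit, had 74.5 and 27.0 CPM in SST, 167 and 157 CPM in PV, and 39.7 and 43.4 CPM in VIP, a log2 difference of -1.70 for SST minus PV (SE 0.30, edgeR adjusted p = 0.00431). Rab32, a small GTPase of organelle traffic, had 33.6 and 23.9 CPM in SST, 81.9 and 88.2 CPM in PV, and 23.3 and 34.0 CPM in VIP (-1.59, SE 0.26, adjusted p = 0.00302). An intronic region 914 bases from an Irf2 start had 30.4 and 26.6 CPM in SST, 60.5 and 61.6 CPM in PV, and 30.3 and 40.2 CPM in VIP. Its call was lost without PV replicate 1 (adjusted p = 0.12) or 2 (adjusted p = 0.115). In the other direction, the largest nuclear difference, at 9430038I01Rik, rested on SST replicate 2: it had 58.8 and 198 CPM in SST, 49.3 and 43.3 CPM in PV, and the log2 difference fell from 1.46 to 0.36 without that replicate. The other 2 of the 3 largest were mitochondrial. Leaving out SST replicate 2 gave 402 regions in all for this pair, and leaving out PV replicate 1 or 2 gave 46 and 44, against 209. Without the filter on low counts edgeR called no region for this pair, with 1044 at an unadjusted p under 0.05, and DESeq2 called 27, so each SST and PV call named here was lost without the filter.

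Between SST and VIP, 570 regions were higher in SST (9.28%; 17.4% of all tested) and 716 higher in VIP (11.7%; 18.8%). With scaling over the 6144 regions the balance turned, to 810 and 489. The largest nuclear differences were at Rbbp8, Mrpl36 and Klf4. The Mrpl36 promoter, which serves a protein of the mitochondrial ribosome, had 119 and 57.6 CPM in SST, 134 and 104 CPM in PV, and 26.8 and 21.9 CPM in VIP. Its log2 difference was 1.86 for SST minus VIP (SE 0.30, edgeR adjusted p = 0.000157) and 2.32 for PV minus VIP (SE 0.30, adjusted p = 2.4e-05). Another strongly open region at an Mrpl36 start, shared with Ndufs6, differed less. It had 77.7 and 61.2 CPM in SST, 71.7 and 61.6 CPM in PV, and 34.8 and 51.0 CPM in VIP. There the log2 difference was 0.70 for SST minus VIP (SE 0.24, edgeR adjusted p = 0.0297) and 0.66 for PV minus VIP (SE 0.24, adjusted p = 0.0308). Klf4, a zinc finger transcription factor, had 143 and 54.1 CPM in SST, 110 and 99.9 CPM in PV, and 30.3 and 25.9 CPM in VIP. At Klf4 and at the first Mrpl36 region, SST replicate 1 lay at or above the lower PV sample and replicate 2 between PV and VIP.

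Higher in VIP than in SST were an intronic region 712 bases from a start of Enox1, an intronic region of Nfia and the promoter of Rap1b. The Enox1 region had 23.1 and 35.0 CPM in SST, 24.4 and 29.4 CPM in PV, and 74.0 and 99.2 CPM in VIP. No sample's peak list held a peak over it. The Nfia region, in the gene of a nuclear factor I protein and 90815 bases from its nearest start, was well conserved (phyloP mean 1.39). It had 26.2 and 52.7 CPM in SST, 67.6 and 51.1 CPM in PV, and 103 and 126 CPM in VIP (SST minus VIP -1.51, SE 0.27, edgeR adjusted p = 0.000378). For this pair, leaving out SST replicate 2 gave 2915 regions and leaving out VIP replicate 1 or 2 gave 566 and 424, against 1286, and 147 were called without the filter on low counts (20 higher in SST and 127 in VIP) and 512 by DESeq2. Without PV replicate 2, which enters this pair only through the scaling, the estimate of the spread and the filter, the split turned to 552 and 524.

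PV and VIP had the most calls. Higher in PV were 848 regions (13.8%; 24.6% of all tested) and higher in VIP 1791 (29.2%; 24.6%), and with scaling over the 6144 regions the numbers turned to 1328 and 1072. The median size of a called difference was 0.95 on the log2 scale for those higher in PV and 0.85 for those higher in VIP. Rap1b, a small GTPase of cell adhesion, had 25.7 and 53.2 CPM in SST, 21.9 and 27.7 CPM in PV, and 107 and 119 CPM in VIP, so that VIP lay above all other samples (PV minus VIP -2.16, SE 0.29, edgeR adjusted p = 3.4e-05). Cpsf6, a cleavage and polyadenylation factor, had 29.9 and 56.7 CPM in SST, 28.0 and 25.5 CPM in PV, and 96.3 and 122 CPM in VIP (edgeR adjusted p = 4.4e-05). R3hcc1l had 41.5 and 69.6 CPM in SST, 23.4 and 21.1 CPM in PV, and 79.9 and 99.2 CPM in VIP (-1.98, SE 0.27, adjusted p = 4.2e-05). Leaving out PV replicate 1 gave 1431 regions in all, PV replicate 2 gave 1527 and VIP replicate 2 gave 1566, against 2639, and 1232 were called without the filter on low counts (65 higher in PV and 1167 in VIP).

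**Figure D5:**
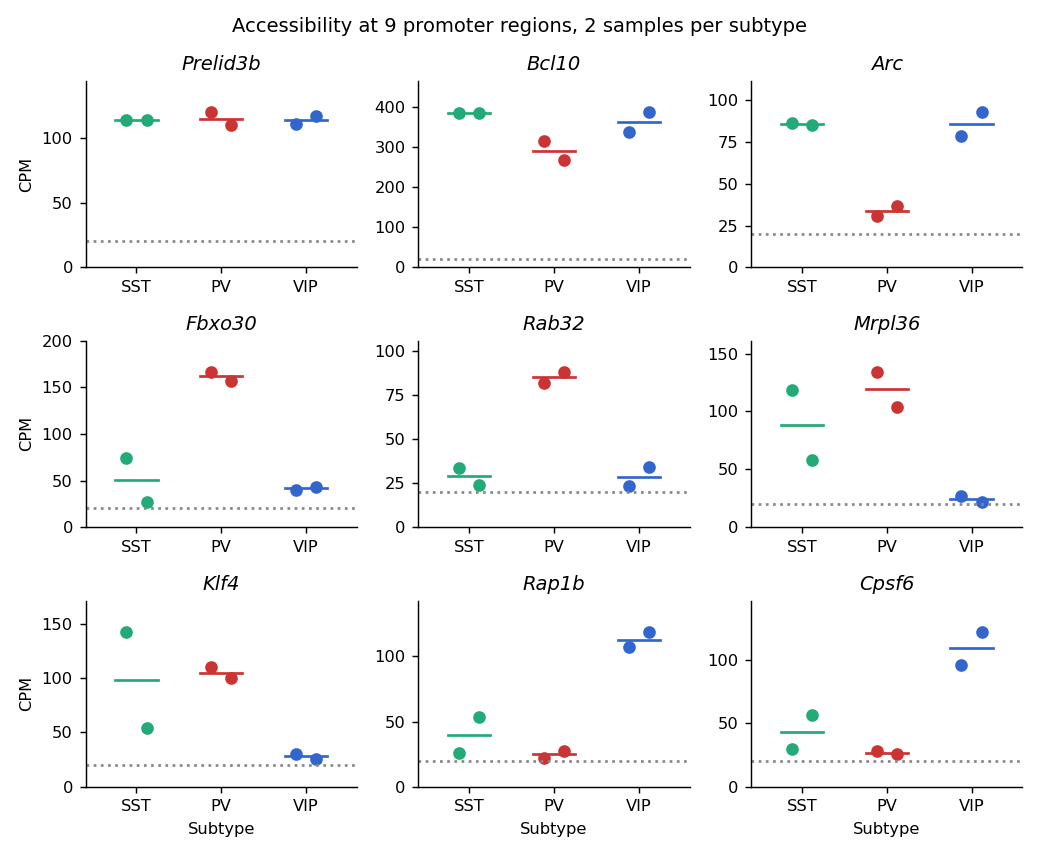
CPM (y axis, from 0) at 9 promoter regions in the 2 samples (points) of each subtype (x axis), with the mean as a line and the threshold of 20 as a dotted line. Prelid3b is even, Arc is lowest in PV, Fbxo30 and Rab32 are highest in PV, Mrpl36 and Klf4 are lowest in VIP, and Rap1b and Cpsf6 are highest in VIP.

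Gene groups were compared between PV and VIP. Of the 41 strongly open regions at cytosolic ribosomal protein genes, 14 were higher in VIP and 4 higher in PV, with a median of -0.33 for PV minus VIP. Over all 6144 the shares were 29.2% higher in VIP and 13.8% higher in PV with a median of -0.23, and over all tested regions both shares were 24.6%, so the counts of this group and of those that follow are to be read beside these. Of 38 at complex I and ATP synthase genes, 14 were higher in VIP and 3 in PV (median -0.44). Ndufv2, a core subunit of complex I, had 84.5 and 99.3 CPM in SST, 63.1 and 56.1 CPM in PV, and 173 and 204 CPM in VIP (-1.63, SE 0.19, edgeR adjusted p = 1.2e-05). Of 39 at mitochondrial ribosomal protein genes, 9 were higher in VIP and 10 in PV (median 0.09), and of 23 at proteasome genes 4 and 4 (median 0.0029, and -0.04 and -0.02 with RLE factors and column sums). With scaling over the 6144 regions the balance at cytosolic ribosomal genes turned to 9 higher in VIP and 10 in PV (median -0.11), while complex I and ATP synthase had 8 and 3 (-0.22), mitochondrial ribosomal genes 3 and 13 (0.31) and the proteasome 3 and 6 (0.22).

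Of the 9 regions at 8 cohesin and insulator genes, 5 were higher in VIP and none in PV. With scaling over the 6144 regions the numbers were 4 and none. The median was -0.57 for PV minus VIP in the main fit. Over all 6144 regions the shares were 29.2% and 13.8%, and over all tested regions 24.6% each. Smc3, a cohesin subunit, had 108 and 149 CPM in SST, 81.4 and 69.9 CPM in PV, and 206 and 241 CPM in VIP (PV minus VIP -1.53, SE 0.20, edgeR adjusted p = 2.4e-05). The 8 regions at immediate early genes belonged to 6 genes, so that a gene can count more than once. Of these regions 7 were higher in VIP than in PV and none lower (6 and none with scaling over the 6144 regions). Egr2, also activity-induced but not on the list, went the other way, with 76.6 and 29.3 CPM in SST, 55.9 and 46.1 CPM in PV, and 22.8 and 20.1 CPM in VIP (PV minus VIP 1.27, SE 0.35, edgeR adjusted p = 0.00696), a call lost without the filter on low counts (adjusted p = 0.246). The 7 included Jund, with 86.1 and 87.3 CPM in SST, 79.3 and 72.7 CPM in PV, and 152 and 138 CPM in VIP (-0.90, SE 0.19, adjusted p = 0.000996). Of the 5 at pan-neuronal genes, Syt1, Syn1 and Tubb3, genes of synaptic vesicles and the neuronal cytoskeleton, were higher in VIP, and Nefm was higher in PV, where scaling over the 6144 regions gave 3 and 2. Nefm, which encodes the medium neurofilament protein, had 60.4 and 31.9 CPM in SST, 94.6 and 83.8 CPM in PV, and 24.8 and 21.5 CPM in VIP (1.97, SE 0.28, adjusted p = 6.2e-05). The call at Tubb3 was lost without PV replicate 1 (adjusted p = 0.088).

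Nuclear RNA of genes at called promoters was set beside that of genes at promoters not called. Among genes with at least 20 UMIs in the nuclei that held Pvalb or Vip UMIs alone, 61.7% of 496 whose region was higher in PV had a higher UPM in the Pvalb nuclei, against 58.6% of 1241 whose region was higher in VIP and 57.9% of 2200 not called. The median log2 ratios were 0.23, 0.14 and 0.12. For SST and VIP the shares were 56.7% of 372, 53.3% of 572 and 56.7% of 3564. For SST and PV they were 43.1% of 123 higher in SST, 44.4% of 18 higher in PV and 45.8% of 4420 not called. These nuclei numbered 935 for Sst, 310 for Pvalb and 427 for Vip in 1 sample, so the values carry no test. The share of free RNA from other nuclei was not measured, and no likeness of RNA between subtypes is read from these values. In all, 9663 of 34958 barcode names occurred in more than 1 of the 10 libraries.

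GC content moved with the differences, though not in 1 direction. Over all tested regions, the median log2 difference for PV minus VIP was -0.11 at the 708 regions whose middle was under 45% GC, 0.42 at 45% to 55%, -0.02 at 55% to 65%, -0.14 at 65% to 70% and -0.17 at 70% or more. Among the 6144 the medians were -0.02 at 45% to 55%, -0.21, -0.24 and -0.25 in the ranges above. The part of GC content in the counts of calls was not tested.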

How the data were processed

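ATAC-Seq reads (single end) were processed by the authors: trimming with Trimmomatic 0.33, alignment to mm10 (GRCm38) with Subread 1.4.6-p3, duplicate removal with SAMtools, peaks required by both MACS2 and HOMER, and featureCounts over 323369 merged regions. The deposited count table holds whole reads per region and sample, and no per-sample column was left out. The authors' score per region is a mean placental phyloP value. Deposited peak lists give a −log10 q-value. A deposited table of 0 and 1 marks peaks per sample and region. The deposited table of screened enhancers gives the authors' specificity values, each a fold of SST over other cells, and only its region names were used. The deposited single-nucleus table holds UMI counts per gene. Blacklist filtering is described for browser tracks only.

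Here, counts were scaled to CPM of the column sum, and members needed 20 CPM in all 6 samples. Positions came from the basic set of GENCODE vM21 (GRCm38), a set picked when the positions were computed. Tests used edgeR (quasi-likelihood, TMM, its default low-count filter, 1 group term over 6 samples, adjusted p under 0.05). DESeq2 and other scalings were alternatives. Nuclei counted as Sst, Pvalb or Vip held at least 2 UMIs of that gene and none of the other 2. No doublet caller was run, and no doublet removal is described in the sources used here. The edgeR fit was run on simulated counts of 40338 regions, 200 of them changed in SST. A change of 1 on the log2 scale was called at 0.5% of these for SST and PV and 2.5% for SST and VIP. A change of 2 was called at 72.5% (15 false calls) and 77% (12 false calls). A lack of calls is therefore not read as a lack of difference. Depth was 1801883 to 2256073 reads per sample, so 20 CPM stands on 37 to 46 reads.

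The members and gene lists were chosen with earlier results of these data known. Named regions were the 5 highest, the 3 nearest the threshold on each side, the 3 largest called differences per pair and direction with no overlap of replicates, up to 4 per gene list plus called ones, the 3 highest and 3 most conserved away from starts, the 3 most even and the 3 highest with a CTCF motif away from starts. The text shows a selection of these. The values by GC content, the calls by level, the SST replicate comparison and the fit without mitochondrial regions were added after seeing the data.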

Additional observations from a re-analysis of the deposited data

How the results depend on the processing

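The number of regions was 10145 at 10 CPM, 2867 at 40 CPM and 18983 with a peak in all 6 lists as the rule, and 6250 to 6336 when 1 sample was left out. The mean share of reads of 41.5% became 50.9%, 27.5% and 44.5% at 10 CPM, at 40 CPM and with 20 CPM per kilobase. In the same order the promoter share was 82.6%, 93.5% and 87.1%, the median width 807, 792 and 796 bases, and the median level 45.7, 105 and 60.8 CPM per kilobase. The promoter share was 90.7% and 91.5% with windows of 1 and 2 kilobases, 92.0% with starts of all genes and 86.4% by the middle of the region. Median GC was 67.0% at 10 CPM, 68.3% at 40 CPM and 63.1% over whole regions. The median phyloP mean outside promoters was 0.154, and 90.1% of regions were marked in all 6 samples of the 0 and 1 table.

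Called regions were 0 (SST and PV), 147 (SST and VIP), 1232 (PV and VIP) and 785 (any difference) without the low-count filter. With DESeq2 they were 27, 512, 1779 and 1434. At an unadjusted p under 0.05 there were 1044 regions for SST and PV without that filter and 1090 with it. With TMM over the 6144 regions, the totals were 1299 for SST and VIP and 2400 for PV and VIP, with the direction of both splits turned. Leaving out 1 sample at a time, where the lone sample is assumed to vary like the others, gave 44 to 2076, 424 to 2915, 1431 to 3901 and 1314 to 4065, and 1076 for SST and VIP without PV replicate 2, where the split turned. The cause was not tested. Without mitochondrial regions, an alternative chosen after seeing the data, the counts were 217, 1301, 2655 and 2397. With the replicate number as a block they were 152, 1178, 2519 and 2229. Replicate numbers did not pair the samples (correlations of deviations 0.02, 0.03 and -0.03 over all tested regions, and 0.04, -0.01 and -0.15 over the 6144). Single named regions gave 86 differences, each over 13 alternatives (84 of them in the fit without mitochondrial regions). Of these values 956 stayed on the same side of the threshold, 149 lost the call and 11 gained it. None of the differences called in the main fit changed sign, and the sign of the others was not checked.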
